A study of Mus musculus with 15 samples.

Results

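The 34 genes described here encode the enzymes of glutathione synthesis and use, the peroxiredoxins, superoxide dismutases and catalase, their regulators Nfe2l2 and Keap1, and the superoxide-producing oxidase Nox4. They were taken as a list of gene symbols and found on the arrays through the RefSeq accessions of the probes. All 34 were measured, among 16028 genes tested.

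The study asked how a high-fat diet and the loss of a kidney change gene expression in mouse kidney. Male C57/BJ mice aged 6 weeks lost the left kidney (uninephrectomy, UNX) or had it handled only (sham). They were then fed a high-fat diet (HFD) or a chow diet, labelled low fat (LFD), and their kidneys were collected 20 weeks after surgery. Frozen kidney gave 100 ng of RNA a mouse, which carried the dye Cy3 on 1-colour Agilent arrays, 1 mouse per array. There were 4 LFD-sham, 4 LFD-UNX, 3 HFD-sham and 4 HFD-UNX arrays, and the labels name no genetic alteration or drug. Each group is stated to have had 6 mice, so the arrays cover part of each. Whole kidney was used, so fewer cells of a type and less RNA per cell cannot be told apart.

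Glutathione is a tripeptide that donates electrons to peroxides and is joined by transferases to reactive compounds for export. The proximal tubule, the most abundant cell type of the kidney cortex, makes and recycles large amounts of it. Many of these genes are targets of Nfe2l2 (Nrf2), a transcription factor held in the cytoplasm and marked for degradation by Keap1 until oxidants or electrophiles modify Keap1. Nfe2l2 then binds a short DNA motif, the antioxidant response element.

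That element's core, TGACNNNGC on either strand, was looked for in RefSeq promoters (GRCm38.p6, 250 bases before to 50 after a transcript's start). Of the 34 members, 27 had a promoter in the table, and 8 of the 27 (29.6%) held a match, as did 13.99% of all 27025 genes with a promoter. The 8 were Gsta3, Mgst1, Gclm, Txnrd1, Srxn1, Prdx1, Sod1 and Nfe2l2 itself. Gclc, Gsr, Gsta4, Gstt2, Hmox1, Prdx6 and Sod3 had no entry. The promoters of Gsta3, a transferase that fell on the high-fat diet, and of Gclm, Prdx1 and Txnrd1, which did not pass the test, are shown because all carry a match while their values differed between diets to different degrees. The letters are the 150 bases before the start on the plus strand, at chr1:21240435-21240584, chr3:122245407-122245556, chr4:116685449-116685598 and chr10:82859056-82859205 in that order, with the match in capitals.
Gsta3: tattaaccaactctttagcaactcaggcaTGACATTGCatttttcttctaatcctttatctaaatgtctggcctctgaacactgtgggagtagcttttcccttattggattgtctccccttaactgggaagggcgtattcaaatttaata
Gclm: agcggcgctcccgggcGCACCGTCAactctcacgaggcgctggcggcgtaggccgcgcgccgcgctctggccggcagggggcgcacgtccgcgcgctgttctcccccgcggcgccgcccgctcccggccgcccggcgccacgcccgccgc
Prdx1: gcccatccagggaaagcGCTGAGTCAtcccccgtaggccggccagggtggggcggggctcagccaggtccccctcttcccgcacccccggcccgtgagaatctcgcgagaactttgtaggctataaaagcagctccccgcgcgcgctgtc
Txnrd1: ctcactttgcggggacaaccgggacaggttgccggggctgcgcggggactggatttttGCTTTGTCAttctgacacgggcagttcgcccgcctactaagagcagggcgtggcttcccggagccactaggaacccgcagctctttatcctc
In Gsta3 the match lay on the plus strand, and in the other 3 on the minus strand. Txnrd1 had 3 promoters in the table, and the others shown had 1. A match is a string of letters and not a bound site.

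Values below are normalised log2 signals: the log2 of an array's processed signal minus the array's own 75th percentile, so that 0 is a probe as bright as that percentile. Each gene is represented by its brightest probe, and levels are compared only within a gene. Replicates are given in the order of their numbers. A gene passed a comparison, and is said to have risen or fallen, at a Benjamini-Hochberg adjusted p under 0.05 over all 16028 genes in limma. These p-values measure the spread between 3 or 4 mice a group, and that number limits the precision. Of the 34 members, 32 were well above background on all 15 arrays. Gclm and Sod2 were so on each of the 14 arrays where they had a value.

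Several features of the arrays touch every diet comparison. All high-fat arrays were scanned on 1 day and all low-fat arrays on another, so diet and scan day cannot be told apart. The high-fat arrays lay on slides 1 and 2, each with both surgery groups, while slide 3 held all LFD-sham and slide 4 all LFD-UNX arrays. HFD-sham replicate 3 stood apart, with a 75th percentile signal of 3433 against 700.1 to 2019 on the other 14 arrays. All 9 proximal tubule markers were well above background on every array. Their summed level (linear, in units of the 75th percentile) was 600.1 to 1018 in HFD-sham, 816 to 952 in HFD-UNX and 727 to 868 in the low-fat groups. Of the 9, 1 fell on the high-fat diet in 1-kidney mice (6.51% of all genes did) and none passed in sham mice. Summed lymphocyte markers, 6 of 6 measured, were 2.17 to 3.98 in high-fat and 1.64 to 1.95 in low-fat kidneys. The liver gene Ahsg was above 0 on 3 low-fat arrays (sham replicate 1, 1-kidney replicates 3 and 4) and -4.59 to -1.78 on the other low-fat arrays. On the high-fat arrays Ahsg was -7.49 to -4.86, below every low-fat array. Summed collecting duct markers were lower in high-fat kidneys without overlap, at 28.4 to 31.9 in LFD-sham against 20.4 to 27.0 in HFD-sham and 27.0 to 33.6 in LFD-UNX against 23.0 to 26.8 in HFD-UNX. Summed podocyte markers were too, at 11.5 to 15.7 against 10.1 to 11.2 and 10.698 to 11.9 against 7.83 to 10.6. The single podocyte markers went both ways: 2 of 5 had higher high-fat means in each surgery group, and none passed. Summed fibroblast markers were 13.3 to 23.1 against 10.1 to 11.4 in sham and 7.79 to 14.6 against 8.74 to 9.92 in 1-kidney mice, and summed adipocyte markers 15.8 to 30.5 against 6.95 to 18.3 and 8.79 to 19.9 against 9.04 to 20.6. Macrophage, endothelial, blood, liver and loop and distal tubule sums overlapped between diets in both surgery groups. The part of these features in the results below was not tested except where values without an array or slide are given.

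In sham-operated mice 6 members fell and 1 rose on the high-fat diet in the model without slide, and none passed once slide was a random block. Gstm1, Gclc and Gsta3 had the largest differences, -1.23, -1.18 and -1.13 on the log2 scale, Hmox1, Mgst3 and Sod2 fell by less, and catalase (Cat) rose. The 7 of 34 (20.6%) compare with 13.9% of all genes tested, 6.49% higher and 7.37% lower. The median log2 difference was -0.09 over the members and -0.02 over all genes, with 14 members above 0 and 20 below. At an unadjusted p under 0.05 there were 14 members, against 30.1% of all genes, and groups did not overlap for 3 members that were higher and 8 that were lower, against 11% and 15.2% of all genes. In mice with 1 kidney Gclc, Gstm1 and Gsta3 fell and no member rose, 3 of 34 (8.82%) against 14.2% of all genes (7.67% higher, 6.51% lower), and the median was -0.03 against -0.01. Here 10 members had an unadjusted p under 0.05, against 29.7% of all genes, and 6 higher and 3 lower members had groups without overlap, against 11.4% and 11.1%. The sham and 1-kidney comparisons use separate mice.

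Every one of these calls ended when slide was a random block in limma (estimated correlation 0.406). Each low-fat group lay on 1 slide. No member then passed in either diet comparison, against 14 of all genes (0.0873%) in sham and 26 (0.162%) in 1-kidney mice. At an unadjusted p under 0.05 in limma there were 9 and 3 of 34 members, against 14.8% and 12.8% of all genes. Gstm1 had the smallest adjusted p among members, 0.0799 and 0.0839, and Gclc had 0.212 and 0.224. The calls below are those of the model without slide.

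**Figure D1:**
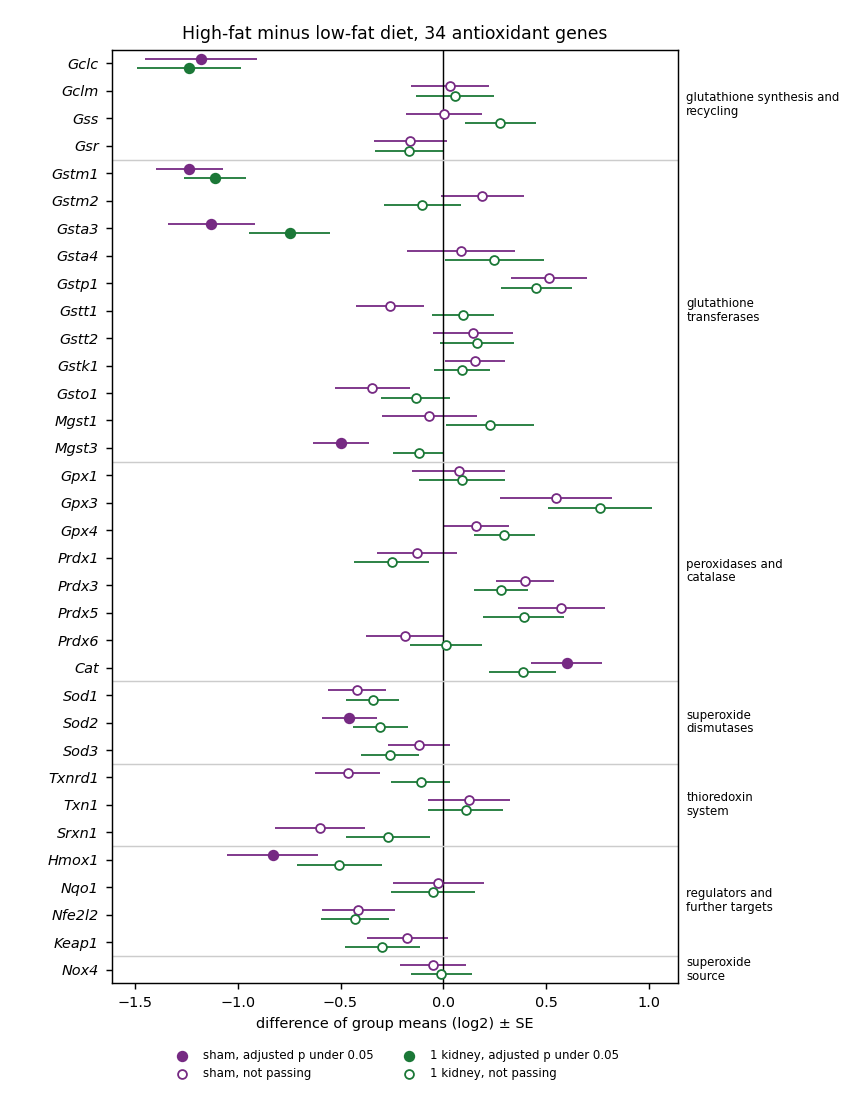
High-fat minus low-fat difference of group means (log2, x axis) with its standard error for each of the 34 members, grouped by role, in sham mice (purple, 4 low-fat and 3 high-fat) and in mice with 1 kidney (green, 4 and 4). Filled circles have an adjusted p under 0.05: Gclc, Gstm1 and Gsta3 in both, and Mgst3, Cat, Sod2 and Hmox1 in sham mice.

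Among the 4 genes of glutathione synthesis and recycling, Gclc fell in both comparisons and the other 3 passed in neither. Only 1 Gclc probe entered the fits, so no second probe could be set beside it. Gclc encodes the catalytic subunit of glutamate-cysteine ligase, the rate-limiting enzyme of glutathione synthesis. Its normalised log2 signals were 4.83, 5.03, 4.25 and 4.63 on LFD-sham arrays, 4.97, 3.78, 4.46 and 4.34 on LFD-UNX arrays, 3.08, 3.45 and 3.99 on HFD-sham arrays and 3.02, 3.12, 3.44 and 3.01 on HFD-UNX arrays. Every high-fat value was 3.99 or lower, and high-fat and low-fat mice of the same surgery did not overlap. The difference was -1.18 ± 0.27 (adjusted p = 0.0135) in sham mice, a 2.26-fold lower signal, and -1.24 ± 0.25 (adjusted p = 0.00636) in mice with 1 kidney, a 2.36-fold lower signal (limma, log2 ± SE).

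Gclm, the modifier subunit of the same enzyme, gave 1.38, 2.06, 1.61 and 2.09 on LFD-sham arrays, 1.95, 1.74 and 1.72 on LFD-UNX arrays, 1.51, 1.89 and 2.05 on HFD-sham arrays and 1.85, 2.03, 1.89 and 1.67 on HFD-UNX arrays, with LFD-UNX replicate 4 left out as an outlier spot. Its groups overlapped throughout, with differences of 0.03 (adjusted p = 0.935) and 0.06 (adjusted p = 0.87) in sham and 1-kidney mice by limma. The 2 subunits of this ligase thus had different values: Gclc fell by over 1 log2 unit and Gclm lay within 0.06 of 0, and this contrast between subunits was not tested. Gsr, which reduces oxidised glutathione, gave 4.13, 3.92, 3.94 and 4.16 on LFD-sham arrays, 4.05, 4.02, 3.95 and 4.04 on LFD-UNX arrays, 3.70, 3.74 and 4.19 on HFD-sham arrays and 3.54, 3.55, 4.14 and 4.17 on HFD-UNX arrays. These groups overlapped too, and the differences were -0.16 (adjusted p = 0.585) and -0.17 (adjusted p = 0.535) by limma. Gss, the second enzyme of synthesis, differed by 0.00 (adjusted p = 0.995) and 0.28 (adjusted p = 0.306) by limma.

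**Figure D2:**
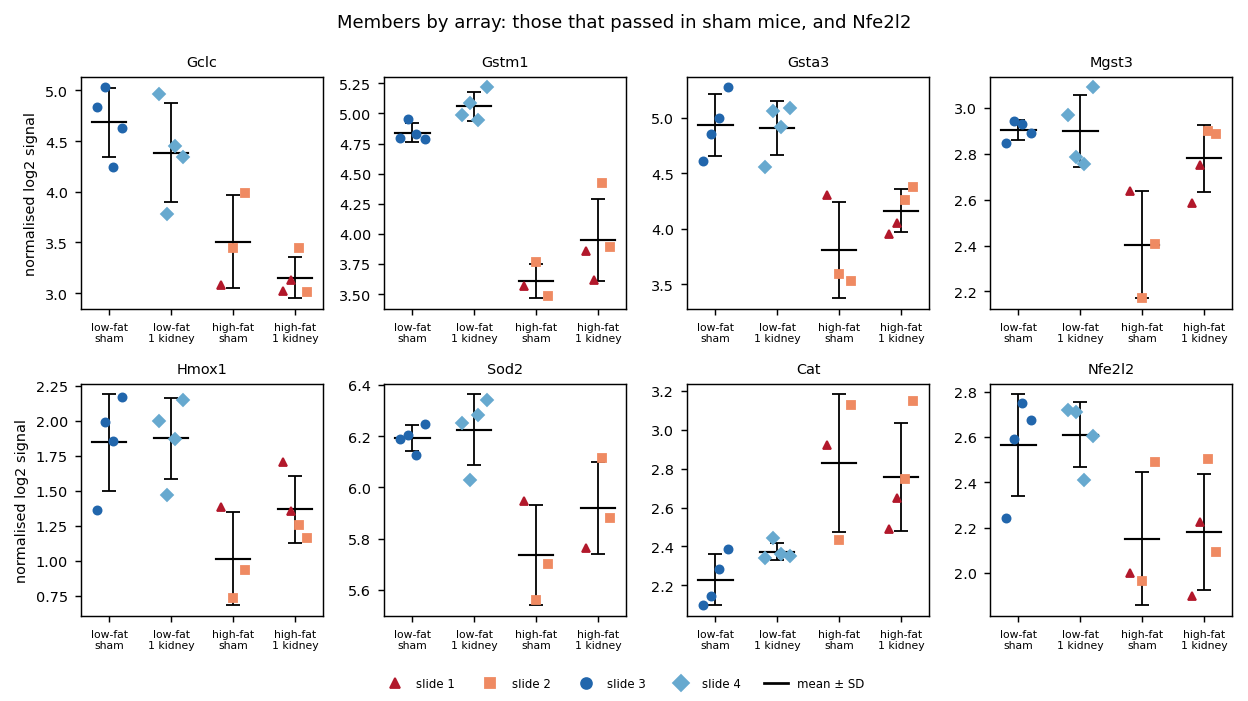
Normalised log2 signal (y axis) on each array for the 7 members that passed in sham mice and for Nfe2l2, by group, with the group mean and SD in black and symbols for the 4 slides. The 7 high-fat values of Gclc, Gstm1 and Gsta3 lie below the 8 low-fat values of their own gene, apart from a low-fat Gclc value of 3.78.

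The 11 glutathione transferases join glutathione to electrophiles, and 3 of them fell in sham mice (7.37% of all genes did) and 2 in mice with 1 kidney (6.51%), with none rising. Both counts include Gstm1, whose probes disagreed. Gstm1, a cytosolic mu-class transferase, gave 4.80, 4.95, 4.83 and 4.79 on LFD-sham arrays, 4.99, 5.09, 4.94 and 5.22 on LFD-UNX arrays, 3.57, 3.77 and 3.49 on HFD-sham arrays and 3.86, 3.62, 4.43 and 3.89 on HFD-UNX arrays. All 7 high-fat values lay below all 8 low-fat values. The difference was -1.23 ± 0.16 (adjusted p = 0.00119) in sham mice and -1.11 ± 0.15 (adjusted p = 0.00079) in mice with 1 kidney by limma, 2.35-fold and 2.16-fold lower.

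This held for the brightest Gstm1 probe and not for the other. The second probe, also well above background on all 15 arrays, had group means of 3.19 ± 0.17 (SD, n = 4) in low-fat sham, 3.44 ± 0.13 (n = 4) in low-fat 1-kidney, 3.95 ± 0.43 (n = 3) in high-fat sham and 4.05 ± 0.64 (n = 4) in high-fat 1-kidney mice. Its differences pointed the other way, 0.76 ± 0.28 (adjusted p = 0.0983) and 0.61 ± 0.26 (adjusted p = 0.151) in limma fitted to all 28214 probes, of which 10.9% and 12.2% passed. With the mean of both probes Gstm1 no longer passed, at -0.24 (adjusted p = 0.328) and -0.25 (adjusted p = 0.252) by limma. The mu-class genes are close copies lying side by side in the genome, so a probe may read several of them and the call for Gstm1 is uncertain. Its neighbour Gstm2 differed by 0.19 (adjusted p = 0.57) and -0.10 (adjusted p = 0.75) by limma, and Gstm3, from the wider pathway list, rose by 1.00 ± 0.24 (adjusted p = 0.015) and 0.86 ± 0.22 (adjusted p = 0.0197).

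**Figure D3:**
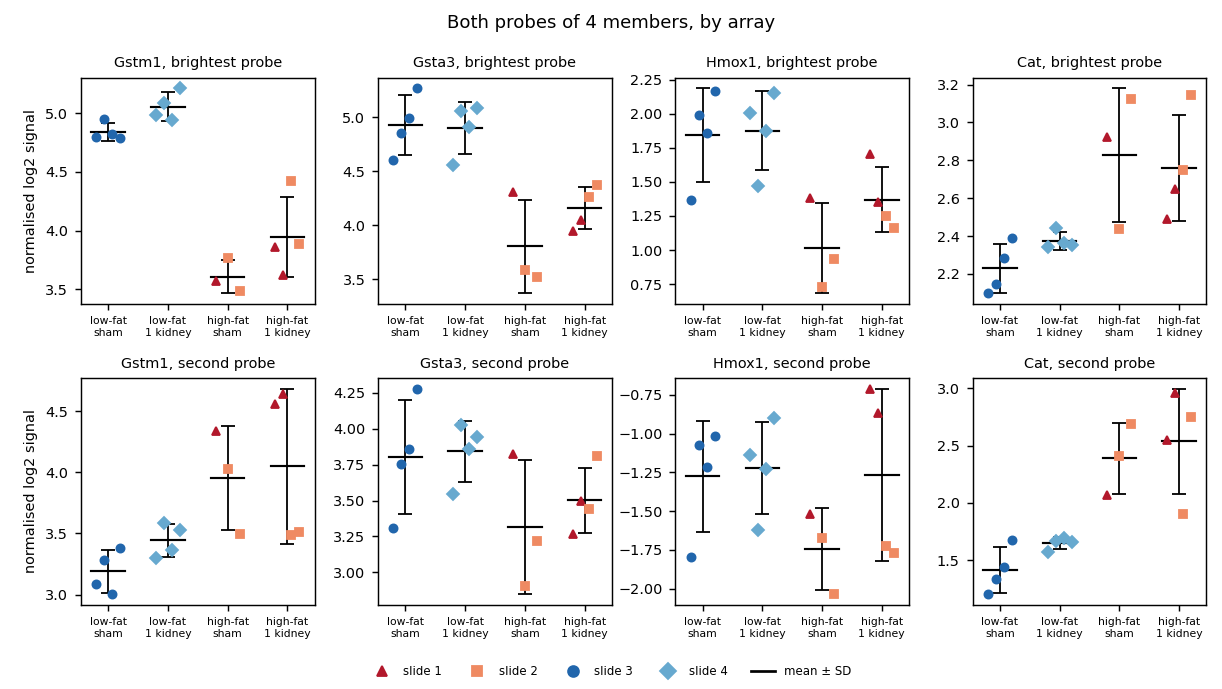
Normalised log2 signal (y axis) on each array from the brightest probe (top) and the second probe (bottom) of Gstm1, Gsta3, Hmox1 and Cat, by group, with mean and SD in black and symbols for the 4 slides. High-fat means are lower than low-fat means for the top Gstm1 probe (3.61 and 3.95 against 4.84 and 5.06) and higher for the bottom one.

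Gsta3, an alpha-class transferase, gave 4.61, 4.86, 4.99 and 5.27 on LFD-sham arrays, 4.56, 5.06, 4.91 and 5.09 on LFD-UNX arrays, 4.30, 3.59 and 3.52 on HFD-sham arrays and 3.95, 4.05, 4.26 and 4.37 on HFD-UNX arrays. High-fat values were below low-fat values with no overlap on either surgery, and the difference was -1.13 ± 0.21 (adjusted p = 0.00516) in sham mice and -0.75 ± 0.20 (adjusted p = 0.023) in mice with 1 kidney by limma. Its second probe had the same sign, at -0.49 ± 0.24 (adjusted p = 0.213) and -0.34 ± 0.22 (adjusted p = 0.351), without passing. Without slide 2 Gsta3 was at -0.63 (adjusted p = 0.0874) in sham mice. Leaving out any 1 of LFD-UNX replicates 2, 3 and 4 or HFD-UNX replicates 1 and 2 gave the 1-kidney comparison an adjusted p of 0.0539 to 0.0701 in limma. Mgst3, a membrane-bound transferase of the microsomal family, gave 2.85, 2.94, 2.93 and 2.89 on LFD-sham arrays, 2.97, 2.79, 2.76 and 3.09 on LFD-UNX arrays, 2.64, 2.17 and 2.41 on HFD-sham arrays and 2.59, 2.75, 2.90 and 2.89 on HFD-UNX arrays. The 3 high-fat sham values lay below every low-fat sham value, and the difference was -0.50 ± 0.14 (adjusted p = 0.0274) there by limma. In mice with 1 kidney the groups overlapped, at -0.12 ± 0.13 (adjusted p = 0.556). Its second probe was at -0.28 (adjusted p = 0.287) and 0.08 (adjusted p = 0.772) in the fit to all probes, and with the mean of its probes Mgst3 did not pass in sham mice, at -0.39 (adjusted p = 0.0971).

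None of the other 8 transferases passed. Gstp1, the pi-class enzyme, had higher means on the high-fat diet, at 0.51 (adjusted p = 0.077) and 0.45 (adjusted p = 0.0915) by limma. Its near-identical copy Gstp2 fell in sham mice, by 0.65 (adjusted p = 0.0342), so the values of both are uncertain. Gsto1 differed by -0.35 (adjusted p = 0.219) and -0.13 (adjusted p = 0.633), and Gstt1 by -0.26 (adjusted p = 0.31) and 0.09 (adjusted p = 0.718). Gstm2, Gsta4, Gstt2, Gstk1 and Mgst1 differed by -0.10 to 0.25 over both comparisons.

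The 8 peroxidases and catalase were mostly higher on the high-fat diet, 6 of 8 above 0 in sham mice (48.2% of all genes) and 7 of 8 in mice with 1 kidney (48.9%), but only Cat passed, and only in sham mice. Prdx2, a cytosolic peroxiredoxin from the wider list, fell in sham mice, at -0.55 (adjusted p = 0.03) with no overlap, and was at -0.31 (adjusted p = 0.161) in mice with 1 kidney by limma. Cat, the peroxisomal enzyme that splits hydrogen peroxide into water and oxygen, gave 2.10, 2.15, 2.28 and 2.39 on LFD-sham arrays, 2.34, 2.44, 2.36 and 2.35 on LFD-UNX arrays, 2.92, 2.43 and 3.13 on HFD-sham arrays and 2.49, 2.65, 2.75 and 3.15 on HFD-UNX arrays. High-fat values lay above low-fat values with no overlap in either surgery group. The difference was 0.60 ± 0.17 (adjusted p = 0.0362) in sham mice, 1.51-fold higher, and 0.38 ± 0.16 (adjusted p = 0.127) in mice with 1 kidney by limma. Its second probe rose in both, by 0.97 ± 0.22 (adjusted p = 0.0144) and 0.89 ± 0.20 (adjusted p = 0.0128) in the fit to all probes.

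Gpx3, the secreted plasma glutathione peroxidase made by the proximal tubule, gave 8.01, 7.86, 7.98 and 7.89 on LFD-sham arrays, 7.80, 7.71, 7.91 and 8.04 on LFD-UNX arrays, 9.28, 8.60 and 7.57 on HFD-sham arrays and 8.77, 8.60, 8.67 and 8.47 on HFD-UNX arrays. High-fat sham replicate 3 was below all low-fat arrays while the other 6 high-fat arrays were above them. The difference was 0.55 ± 0.27 (adjusted p = 0.196) in sham mice and 0.76 ± 0.25 (adjusted p = 0.0591) in mice with 1 kidney by limma, neither passing. Without high-fat sham replicate 3 it was 1.00 (adjusted p = 0.00343) and 0.76 (adjusted p = 0.00346), and Gpx3 passed in both, with 14.8% and 17.4% of all genes passing. Prdx5, a peroxiredoxin of mitochondria and peroxisomes, and the mitochondrial Prdx3 were also higher with no overlap in both surgery groups. Of all genes, 11% were higher without overlap in sham and 11.4% in 1-kidney mice. The differences were 0.57 (adjusted p = 0.0856) and 0.39 (adjusted p = 0.201) for Prdx5 by limma. For Prdx3 they were 0.40 (adjusted p = 0.078) and 0.28 (adjusted p = 0.169), and neither gene passed. Gpx1, the main cytosolic peroxidase, Gpx4, which reduces lipid peroxides, Prdx1 and Prdx6 differed by -0.25 to 0.30.

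The 3 superoxide dismutases, which turn superoxide into hydrogen peroxide, all had lower means on the high-fat diet, and Sod2 fell in sham mice. The mitochondrial Sod2 gave 6.19, 6.20, 6.13 and 6.25 on LFD-sham arrays, 6.25, 6.03, 6.28 and 6.34 on LFD-UNX arrays, 5.95, 5.56 and 5.70 on HFD-sham arrays and 5.76, 6.11 and 5.88 on HFD-UNX arrays, with HFD-UNX replicate 2 left out as an outlier spot. The 3 high-fat sham values lay below all low-fat sham values, and the difference was -0.46 ± 0.13 (adjusted p = 0.0377) in sham mice and -0.31 ± 0.13 (adjusted p = 0.14), with overlap, in mice with 1 kidney by limma. The cytosolic Sod1 gave 7.01, 6.98, 6.95 and 6.97 on LFD-sham arrays, 7.08, 6.87, 7.0005 and 7.12 on LFD-UNX arrays, 6.67, 6.61 and 6.39 on HFD-sham arrays and 6.53, 6.44, 7.03 and 6.70 on HFD-UNX arrays. It differed by -0.42 ± 0.14 (adjusted p = 0.0606), with no overlap, and -0.34 ± 0.13 (adjusted p = 0.0914) by limma, above the threshold in both. In sham mice 15.2% of all genes were lower without overlap. The extracellular Sod3 gave 5.99, 5.53, 5.66 and 5.79 on LFD-sham arrays, 5.85, 5.69, 5.93 and 5.84 on LFD-UNX arrays, 5.68, 5.69 and 5.51 on HFD-sham arrays and 5.38, 5.32, 5.85 and 5.72 on HFD-UNX arrays. Its groups overlapped, at -0.12 (adjusted p = 0.641) and -0.26 (adjusted p = 0.236) by limma.

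No gene of the thioredoxin system passed. Txnrd1, the cytosolic thioredoxin reductase, differed by -0.47 (adjusted p = 0.0619) and -0.11 (adjusted p = 0.648), and Srxn1, the sulfiredoxin that repairs over-oxidised peroxiredoxins, by -0.60 (adjusted p = 0.0833) and -0.27 (adjusted p = 0.401) by limma. In sham mice high-fat values of both lay below low-fat values with no overlap, as they did for 15.2% of all genes. Thioredoxin itself, Txn1, differed by 0.12 (adjusted p = 0.722) and 0.11 (adjusted p = 0.735).

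Of Nfe2l2, Keap1, Hmox1 and Nqo1, only Hmox1 passed, and only in sham mice. Hmox1, the inducible heme oxygenase and a classical Nfe2l2 target, gave 1.36, 1.99, 1.86 and 2.17 on LFD-sham arrays, 2.00, 1.47, 1.87 and 2.15 on LFD-UNX arrays, 1.38, 0.73 and 0.93 on HFD-sham arrays and 1.71, 1.36, 1.25 and 1.16 on HFD-UNX arrays. The lowest low-fat sham value, 1.36, was just below the highest high-fat sham value, 1.38. The difference was -0.83 ± 0.22 (adjusted p = 0.0258) in sham mice, 1.78-fold lower, and -0.51 ± 0.21 (adjusted p = 0.116) in mice with 1 kidney by limma. Its second probe, well above background on all 15 arrays, was at -0.47 (adjusted p = 0.312) and -0.05 (adjusted p = 0.931) in the fit to all probes. With the mean of both probes Hmox1 did not pass in sham mice, at -0.65 (adjusted p = 0.0954) by limma. Nqo1, a quinone reductase also used as a marker of Nfe2l2 activity, gave -0.16, 0.53, 0.23 and 0.59 on LFD-sham arrays, 0.06, 0.75, 0.54 and 0.76 on LFD-UNX arrays, 0.50, -0.09 and 0.40 on HFD-sham arrays and 0.26, 0.39, 0.59 and 0.68 on HFD-UNX arrays. Its groups overlapped, with differences of -0.03 (adjusted p = 0.958) and -0.05 (adjusted p = 0.895) by limma.

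Nfe2l2 gave 2.24, 2.59, 2.75 and 2.68 on LFD-sham arrays, 2.72, 2.71, 2.41 and 2.61 on LFD-UNX arrays, 2.00, 1.96 and 2.49 on HFD-sham arrays and 1.90, 2.22, 2.50 and 2.09 on HFD-UNX arrays. High-fat means were lower with overlapping groups, at -0.41 ± 0.18 (adjusted p = 0.135) and -0.43 ± 0.17 (adjusted p = 0.0977) by limma. Nfe2l2 passed in sham mice without HFD-sham replicate 3, at -0.58 (adjusted p = 0.0463, limma), with 14.8% of all genes passing. In mice with 1 kidney it passed without HFD-UNX replicate 3, at -0.54 (adjusted p = 0.0357, limma), with 20.6% of all genes passing. Each array left out held the highest Nfe2l2 value of its group, and Nfe2l2 passed in no other fit without 1 array. Without slide 2, which left 1 high-fat sham array, the 1-kidney difference was -0.55. Keap1, its inhibitor, gave 2.23, 2.27, 2.22 and 2.39 on LFD-sham arrays, 2.34, 2.28, 2.36 and 2.35 on LFD-UNX arrays, 2.42, 1.97 and 1.92 on HFD-sham arrays and 2.33, 2.48, 1.73 and 1.61 on HFD-UNX arrays. Among the high-fat arrays, those on slide 1 were at 2.33 to 2.48 and those on slide 2 at 1.61 to 1.97, and the diet differences were -0.17 (adjusted p = 0.591) and -0.30 (adjusted p = 0.296) by limma. Nox4, the kidney's main NADPH oxidase and a source of hydrogen peroxide, gave 3.57, 3.67, 3.91 and 3.75 on LFD-sham arrays, 3.86, 3.86, 3.81 and 3.93 on LFD-UNX arrays, 3.82, 3.44 and 3.76 on HFD-sham arrays and 3.63, 3.59, 3.96 and 4.24 on HFD-UNX arrays. It differed by -0.05 (adjusted p = 0.867) and -0.01 (adjusted p = 0.969), with overlap.

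The position of a high-fat array on slide 1 or slide 2 went with several members. With surgery group as a term, 7.14% of all genes differed between these slides by limma, and of the members Keap1 did, 0.63 ± 0.15 higher on slide 1 (adjusted p = 0.0468). Before adjustment 6 members were higher and 5 lower on slide 1 at p under 0.05 by limma. The share of all genes at that threshold was not counted, so these counts are not read as particular to the members. Prdx5 was 7.35 to 7.80 on slide 1 and 6.69 to 7.02 on slide 2, Gstt2 was 4.55 to 4.59 against 3.82 to 4.13, and Txn1 was 4.31 to 4.51 against 4.56 to 5.15. Where the slides differed this much, the diet difference depended on which of them was used. With slide 2 alone (slide 1 left out), 11 members fell in sham mice and none rose (22.8% of all genes passed). In mice with 1 kidney 6 passed (14.6%), 3 of them higher. With slide 1 alone, 7 rose and 3 fell (30.2%), the lone high-fat sham array being assumed to vary like the other groups, and the median of the members was 0.11 in place of -0.09. In mice with 1 kidney 18 passed, 6 higher and 12 lower, against 48% of all genes. Gclc and Gstm1 fell in both comparisons with either slide left out, at -0.97 to -1.61 and -0.90 to -1.32.

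**Figure D4:**
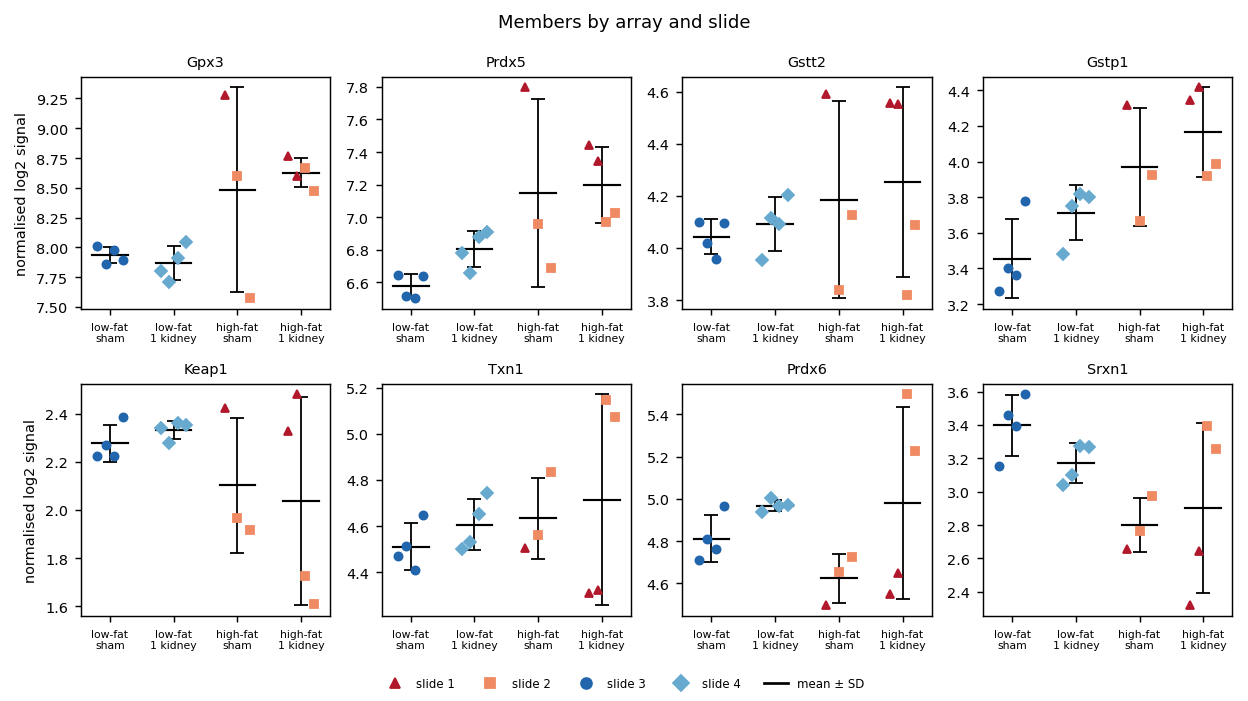
Normalised log2 signal (y axis) on each array for 8 members, by group, with mean and SD in black and symbols for the 4 slides. Among high-fat arrays only Keap1 differed between slides 1 and 2 at an adjusted p under 0.05 by limma. Gpx3 overlapped between these slides, at 8.60 to 9.28 on slide 1 and 7.57 to 8.67 on slide 2. For Keap1 the slide 1 values are 2.33 to 2.48 and the slide 2 values 1.61 to 1.97, with the low-fat arrays at 2.22 to 2.39.

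The diet counts also moved with other settings, as did the share of all genes that passed. With quantile normalization 11 and 6 members passed in sham and 1-kidney mice (15.3% and 15.7% of all genes), with normexp background correction 2 and 2 (1.04% and 1.97%), and with a fixed term for slide 1 against slide 2 among the high-fat arrays 13 and 8 (27.8% and 25.5%). That term cannot remove slide from the diet comparison, because no slide held both diets. With normexp Gstm1 passed in both comparisons, Gsta3 in sham mice only and Gclc in mice with 1 kidney only. With the mean of all probes 4 and 2 passed (11.2% and 12.2%), and with only the 2 groups compared 3 and 4 (7.39% and 11.9%). Leaving out 1 array at a time, Gclc and Gstm1 passed in all 15 fits of both comparisons and Gsta3 in all 15 in sham mice. Cat passed in 8 of 15, and not without LFD-sham replicate 1, 2 or 3, LFD-UNX replicate 3 or 4, or HFD-sham replicate 1 or 3 (adjusted p up to 0.11). Hmox1 passed in 10, and not without LFD-sham replicate 2, 3 or 4 or HFD-sham replicate 2 or 3 (up to 0.102). Mgst3 passed in 11, and not without LFD-sham replicate 2, 3 or 4 or HFD-sham replicate 2 (up to 0.111). Sod2 passed in 6, and not without any 1 of the LFD-sham arrays, LFD-UNX replicate 1, 3 or 4, or HFD-sham replicate 2 or 3 (up to 0.133). With the 3 Ahsg-high arrays left out, Gstm1, Gsta3 and Hmox1 passed in sham mice (4.14% of all genes) and Gstm1 in mice with 1 kidney (2.08%). The differences of Gclc were then -1.13 (adjusted p = 0.0741) and -1.22 (adjusted p = 0.0865) by limma.

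No member passed the test between mice with 1 kidney and sham mice on either diet. On the low-fat diet none of 34 passed, as against 1 of all genes (0.00624%), none had an unadjusted p under 0.05 in limma (3.24% of all genes), and the median difference was 0.05 against 0.01 over all genes. Only Prdx5 had groups without overlap, higher by 0.23, against 2.6% of all genes higher and 1.98% lower. This comparison also sets slide 4 against slide 3, and surgery and slide cannot be told apart on this diet. On the high-fat diet none of 34 members and none of 16028 genes (0%) passed. The median was 0.13, with 27 members above 0, against 0.02 and 54.7% of all genes above 0. Mgst3 alone had an unadjusted p under 0.05, at 0.38 ± 0.14 (unadjusted p = 0.0146, adjusted p = 0.999, limma), against 4.63% of all genes, and no member had groups without overlap, against 1.72% higher and 1.2% lower. Without slide 1, which left HFD-sham replicates 2 and 3 as the sham arrays, Gsto1, Gstt1 and Prdx6 rose (1.1% of all genes passed).

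Within slides, the members' median surgery difference on the high-fat diet had opposite signs. On slide 2, with 2 mice of each kind, the members' median was 0.37, against 0.06 over all genes, and 29 of 34 were above 0. Of these 2 sham arrays, 1 was HFD-sham replicate 3, whose signal stood apart, and its part in these values was not tested. Gstt1 rose by 0.67 ± 0.12 (adjusted p = 0.0294), Prdx6 by 0.67 ± 0.12 (adjusted p = 0.0272), Gsto1 by 0.64 ± 0.12 (adjusted p = 0.0296) and Mgst3 by 0.60 ± 0.13 (adjusted p = 0.041) in limma, while 3.41% of all genes passed. Prdx6 has further probes. On slide 2 its second brightest was at 3.94 and 3.81 in sham and 4.09 and 4.31 in 1-kidney mice. The next was at 3.22 and 2.81 against 3.16 and 3.35, with overlap. The dimmest was at -4.43 and -4.77 against -5.12 and -4.74, also with overlap. On slide 1, with 1 sham mouse and 2 with 1 kidney, the members' median was -0.18, against -0.03 over all genes, and 24 of 34 were below 0. There Gstt1 was at -0.27 and Gsto1 at -0.44, Mgst3 at 0.03 and Prdx6 at 0.10. These slide 1 values are given without a test, since the sham arm is 1 array.

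**Figure D5:**
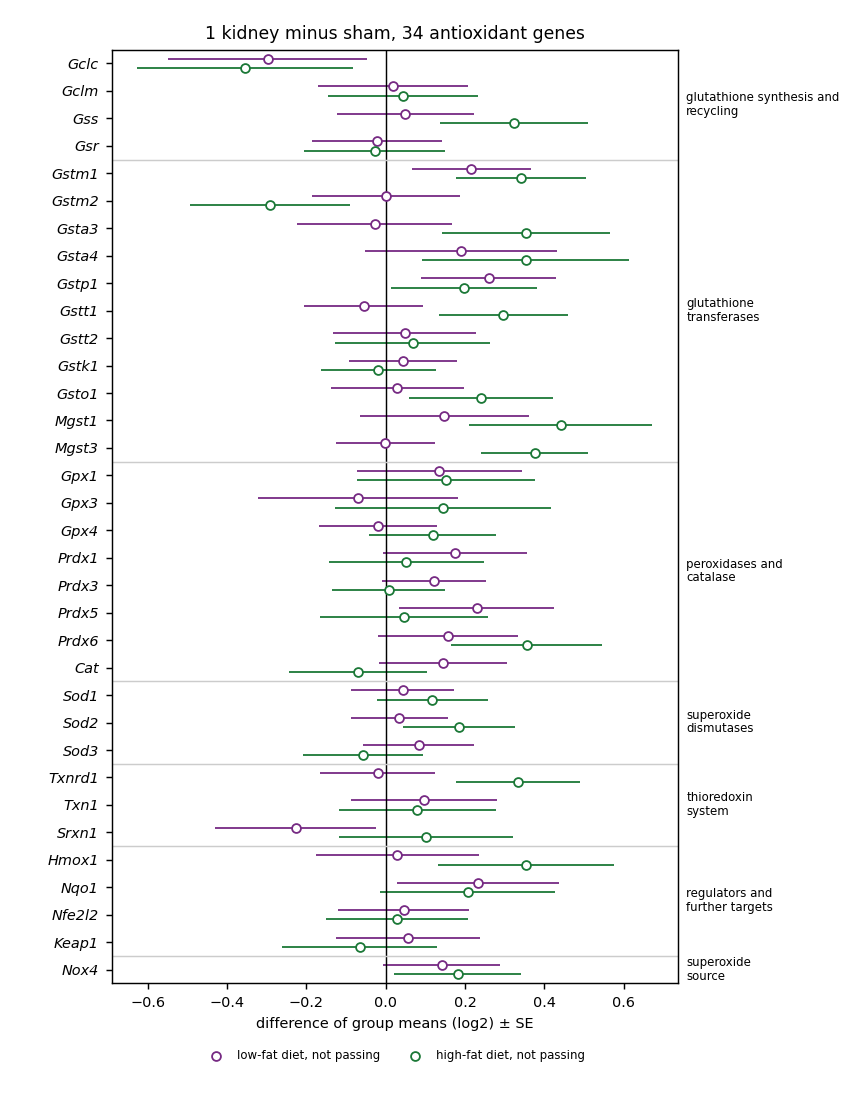
1 kidney minus sham difference of group means (log2, x axis) with its standard error for each of the 34 members, grouped by role, on the low-fat diet (purple, 4 and 4 mice) and on the high-fat diet (green, 3 sham and 4 with 1 kidney). No circle is filled, since no member passed, and 27 of the 34 high-fat differences lie above 0.

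The diet difference was not shown to depend on surgery for any member. None of 34 passed the interaction test in limma, none had an unadjusted p under 0.05 (1.36% of all genes), and no gene of all tested passed (0%). The largest member interactions were 0.38 ± 0.29 for Gsta3 and 0.38 ± 0.18 for Mgst3 (unadjusted p = 0.207 for Gsta3 and 0.0596 for Mgst3, adjusted p = 1.00 for both). The calls of Cat, Hmox1, Mgst3 and Sod2 in sham mice alone therefore do not show a difference from mice with 1 kidney.

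The wider pathway held 76 other genes of glutathione, thioredoxin, NADPH supply and heme or metal handling, of which 72 were measured. In sham mice 5 rose and 8 fell (18.1%), and in mice with 1 kidney 5 rose and 2 fell (9.72%), next to the 13.9% and 14.2% of all genes. The metallothioneins Mt1 and Mt2, small metal-binding proteins, fell in sham mice, at -0.90 (adjusted p = 0.0364) and -1.10 (adjusted p = 0.0239) by limma, and were at -0.21 (adjusted p = 0.598) and -0.23 (adjusted p = 0.597) in mice with 1 kidney. Ggt5, a gamma-glutamyltransferase, fell in sham mice, at -1.01 (adjusted p = 0.0161). Cbr3, a carbonyl reductase, fell in both, at -0.85 (adjusted p = 0.00717) and -0.64 (adjusted p = 0.0167). Glrx3, a glutaredoxin, fell in both, at -0.55 (adjusted p = 0.0151) and -0.49 (adjusted p = 0.0164). Another glutaredoxin, Glrx5, rose in both, by 0.54 (adjusted p = 0.0112) and 0.42 (adjusted p = 0.0219) by limma.

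Genes of heme breakdown had differences in both directions. Unlike Hmox1, the constitutive heme oxygenase Hmox2 rose in both comparisons, by 0.63 ± 0.11 (adjusted p = 0.00358) and 0.50 ± 0.10 (adjusted p = 0.00636) in limma, and so did biliverdin reductase, Blvra, by 0.67 ± 0.15 (adjusted p = 0.0124) and 0.59 ± 0.12 (adjusted p = 0.00749). Blvra had no value on HFD-sham replicate 3, so its sham call rested on 2 high-fat arrays, at 2.76 and 2.35. Mafk, a small Maf protein that pairs with Nfe2l2 on DNA, rose by 0.74 ± 0.22 (adjusted p = 0.0413) and 0.75 ± 0.20 (adjusted p = 0.0273). Hmox2 was 2.64 to 3.01 on the 7 high-fat arrays and 2.20 to 2.39 on the 8 low-fat arrays, with no overlap.

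Of 11 further superoxide sources (NADPH oxidase subunits and Xdh), 9 were measured, and 1 rose and 1 fell in each comparison (22.2%, next to 13.9% and 14.2% of all genes). Cybb, the phagocyte oxidase subunit, rose in sham mice by 1.63 ± 0.50 (adjusted p = 0.0443) and was at 1.28 ± 0.46 (adjusted p = 0.0803) in mice with 1 kidney. Its high-fat values were -1.69 to -1.36 on slide 1 and -3.71 to -2.26 on slide 2, against -4.15 to -3.60 on the low-fat arrays, and HFD-UNX replicate 3 was inside that range. None of the 5 macrophage markers measured passed in either diet comparison. Their median was -0.06 in sham mice, with 2 of 5 above 0, and 0.18 in mice with 1 kidney, with 4 of 5 above 0. Whether cell numbers had a part in the Cybb values was not tested. Nox1 fell in both, at -2.16 (adjusted p = 0.0299) and -1.75 (adjusted p = 0.0487) by limma, but its probe was well above background on 11 arrays only. Xdh, xanthine dehydrogenase, rose in mice with 1 kidney by 0.78 ± 0.18 (adjusted p = 0.0134) and was at 0.61 (adjusted p = 0.0532) in sham mice.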

How the data were processed

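Per the file headers, the authors made the deposited intensity (processed signal) values with Agilent Feature Extraction 10.7.3.1 (10.7 per the submitters' processing notes), on an array design annotated to mm9. The authors' deposited value table held the same intensities, rounded, at 0.995 to 1.00 times them, with medians of 56.7 to 251 per array, so no step between arrays had been applied. Here spots marked as outliers (74 to 273 per array) were left out, spots were averaged per probe, and log2 values were centred on each array's 75th percentile. Between 60.5% and 73.4% of spots were well above background and none was saturated. Of 39429 non-control probes, the 28214 that exceeded background on 3 or more arrays entered the fits. RefSeq accessions gave 27228 probes 1 symbol and 12201 none; 16028 genes were tested, by the brightest probe, in limma 3.58.1 (R 4.3.3) with 1 mean per group over all 15 arrays. The members, the wider lists and the named genes were chosen with earlier results of these data known. By rule, values per array are given for members that passed and for the main enzymes and regulators. From the wider lists, up to 8 genes that passed per diet comparison are named, by size. Hmox2, Blvra and Glrx3 in sham mice, Glrx5, Gstp2, Prdx2 and genes named beside these for contrast were added after their values were seen. Alternatives changed the normalisation, background, probe rule, filter, slide or arrays used. The normexp alternative used median spot and background signals with an offset of 50.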

Additional observations from a re-analysis of the deposited data

Results flagged for a closer look

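In 100 groups of 4 arrays (34 members in 3 groups, less those with a missing value), 3 members had 1 array set apart from the other 3 by Dixon's test, where chance gives about 1 in 20. Gss was 3.94 in low-fat 1-kidney replicate 4 against 3.66 to 3.70 in the others. Gpx1 was 8.30 in high-fat 1-kidney replicate 1 against 8.04 to 8.07. Prdx3 was 2.98 in low-fat sham replicate 4 against 2.75 to 2.77. None of the 3 genes passed a comparison.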

How the results depend on the processing

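No called member changed sign under any alternative run. The count of members that passed in sham mice, 7, was 11 with quantile normalization, 2 with normexp (which moved the median of all genes from -0.02 to -0.11), 4 with the mean of all probes, 0 with slide as a random block, 13 with a fixed term for slide 1 against slide 2 only, 3 with only the 2 groups compared, 11 without slide 1 and 3 without the Ahsg-high arrays. In mice with 1 kidney, 3 became 6 with quantile normalization, 0 with slide as a random block, 8 with that fixed term, 6 without slide 1, 18 without slide 2 and 1 without the Ahsg arrays. For surgery on the high-fat diet, 0 became 3 without slide 1 and 4 within slide 2. The members' median became 0.11 (sham) and -0.22 (1 kidney) without slide 2. For surgery on the high-fat diet it became 0.0063 with quantile normalization, 0.37 without slide 1 or within slide 2, and -0.18 without slide 2 or within slide 1. For the interaction it became 0.29 without slide 1 and -0.21 without slide 2. The cause of these shifts was not tested. The slide alternatives other than the blocks and within-slide values, and the Ahsg one, were chosen after the data were seen.

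Leaving out 1 array at a time gave 3 to 10 members in sham mice (3 without LFD-sham replicate 2 or 3, with 8.76% and 7.57% of all genes passing; 4 without LFD-sham replicate 4 or HFD-sham replicate 2, 9.48% and 7.53%; 10 without HFD-UNX replicate 3, 16.9%) and 2 to 5 in mice with 1 kidney (5 without HFD-UNX replicate 3, 20.6%). Over these fits 7.53% to 16.9% and 8.19% to 20.6% of all genes passed. No member passed for surgery or interaction in these fits. The medians ranged from -0.15 to -0.05 (sham), -0.09 to 0.03 (1 kidney), 0.01 to 0.09 and 0.072 to 0.29 (surgery on low-fat and high-fat) and 0.0017 to 0.13 (interaction). Replicate numbers did not pair the mice: of 21 same-numbered pairs, 5 correlated above 0.1 (-0.15 to 0.44). With the replicate block, 5 and 3 members passed for diet (11.2% and 13.3% of all genes) and 0 for surgery. With probes well above background on all arrays, Gclm and Sod2, each without a value on 1 array, were not tested. With no slide holding both diets, no within-slide value exists for diet.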
